A study of Mus musculus with 6 samples.

Results

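The gene group described here comprised 41 genes that protect cells from oxidants, make or use glutathione, or supply NADPH. Members were taken from the deposited count table by gene symbol, from a list drawn up with earlier results of these data known, and they made up 41 of the 24421 genes listed. The table covered primary cultures from the cochlear wall, which the labels call endothelial cells. The study names the stria vascularis, the vascularized tissue of this wall, as their source. Its methods state that the stria vascularis was isolated together with the spiral ligament. Of the 6 libraries, 3 came from *Nhe6*-knockout and 3 from wildtype mice. Each library was made from 1 culture that pooled cells of at least 6 mice on postnatal days 10 to 12, and the cultures received no treatment. The *Nhe6*-knockout mice carried a targeted gene disruption. Both groups are labelled with a C57BL/6N background, whereas the study's methods name C57bl6/j as the background of the backcross and of the wildtype mice. The methods also state that cultured cells were purified by fluorescence-activated cell sorting and grown in endothelial medium with serum. The comparison asks whether redox genes differed between the genotypes in the same cultures in which *Nnt*, a mitochondrial source of NADPH, was lower in the knockout.

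Cells handle hydrogen peroxide and damaged thiols through a glutathione system and a thioredoxin system, both of which are recharged by NADPH. Transcription of many of the enzymes is driven by NRF2, the product of *Nfe2l2*, which KEAP1 holds at a low level until oxidants or electrophiles modify it. In the stria vascularis, which has a high metabolic rate, these systems are studied for their part in noise injury, ageing and ototoxic drug damage.

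Gene counts summed to 25587097 to 29126232 per library, and 13479 genes, all 41 members among them, had enough counts to be tested. Values below are normalized counts, that is, counts scaled by edgeR's TMM factors to the mean library size, and are given in the order of replicates 1, 2 and 3. Wildtype replicate 2 stood apart, at 112 on the first principal component against -30.4 to -6.49. *Nhe6*-knockout replicates 1 and 2 were far more alike than other cultures of 1 genotype, with a chi-square per degree of freedom of 4.76 against 85.7 to 378, which is still more than counting noise. The labelled cell type had mixed marker levels: of 15 endothelial markers, *Cldn5* and *Robo4* were at 0 in all libraries and *Pecam1* did not exceed 7.82. *Emcn* had 9900 to 18393 normalized counts in 5 libraries and 410 in wildtype replicate 2. *Cdh5*, which encodes VE-cadherin, had 220, 232 and 179 in *Nhe6*-knockout and 2509, 5200 and 3470 in wildtype cultures (adjusted p = 0.0133 in edgeR). *Flt1* was also without overlap, at 378 to 578 against 920 to 3175 (adjusted p = 0.242 in edgeR). *Vwf* was without overlap the other way at low counts, with 15.9, 23.2 and 5.68 in *Nhe6*-knockout and 3.91, 0 and 1.07 in wildtype cultures. Of the 9 endothelial markers tested, 5 had a fold change towards lower and 4 towards higher values in *Nhe6*-knockout cultures. Summed endothelial markers spanned 16883 to 25945 normalized counts in *Nhe6*-knockout and 15990 to 23651 in wildtype cultures. *Emcn* made up most of this sum in 5 libraries, but only 410 of 15990 in wildtype replicate 2, so the sum mainly followed that gene. All 12 fibroblast markers were expressed, with sums of 307053 to 330565 and 279702 to 418741, and 4 of them (*Col3a1*, *Col5a1*, *Dcn* and *Postn*) had all knockout values above all wildtype values. Of 10 mural markers, with sums of 21886 to 23603 and 16274 to 29944, 5 did so (*Pdgfrb*, *Rgs5*, *Des*, *Notch3* and *Abcc9*). Over all genes tested, 10.3% had all knockout values above all wildtype values. None of these 9 fibroblast and mural genes passed an adjusted p of 0.05 in edgeR. Summed macrophage markers were 1406 to 3402 in *Nhe6*-knockout cultures, and among wildtype cultures they were 144 in replicate 2 and reached 3378. Summed over 10 melanocyte markers, counts were 412 to 717 in *Nhe6*-knockout and 289 to 1178 in wildtype cultures. Of these markers, *Tyrp1* and *Dct* stood at 290 and 178 in wildtype replicate 3 and at no more than 5.16 elsewhere. *Tyr*, *Mlana*, *Pmel* and *Kit* were also highest there. By contrast, *Mitf* was highest in wildtype replicate 1 (728) and *Sox10* in *Nhe6*-knockout replicate 2 (40.9), and *Kcnj10* and *Ednrb* did not exceed 5.68. The 12 listed cell cycle genes summed to 7552 to 13997 in *Nhe6*-knockout and to 2241 to 3574 in wildtype cultures, with no overlap. The part of these marker differences in the redox results was not tested, and in such bulk libraries fewer cells of a type cannot be told apart from less RNA per cell.

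None of the 41 members passed an adjusted p of 0.05 in edgeR's quasi-likelihood test, against 0.0668% of all genes tested (9 genes). At an unadjusted p below 0.05, 6 members were lower in *Nhe6*-knockout cultures (*Srxn1*, *Gclm*, *Gsr*, *Gstm1*, *Sod2* and *Glrx2*) and 1 was higher (*Prdx5*), where the shares over all genes were 5.71% lower and 6.14% higher. In 8 members (19.5%) all 3 knockout values were below all 3 wildtype values, against 9.57% of all genes. A single member (2.44%) had all knockout values above the wildtype values, against 10.3% of all genes. The log2 fold change, given throughout for *Nhe6*-knockout over wildtype, was below 0 for 32 members (78.0%), compared with 51.9% of all genes. Its median was -0.16 over the members and -0.02 over all genes, and its median size was 0.22 in both sets. The differences were thus small for most members, and they leaned to lower values in *Nhe6*-knockout cultures. Without wildtype replicate 2 the members below 0 numbered 24 (58.5%), against 49.9% of all genes, and the median was -0.15.

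**Figure D1:**
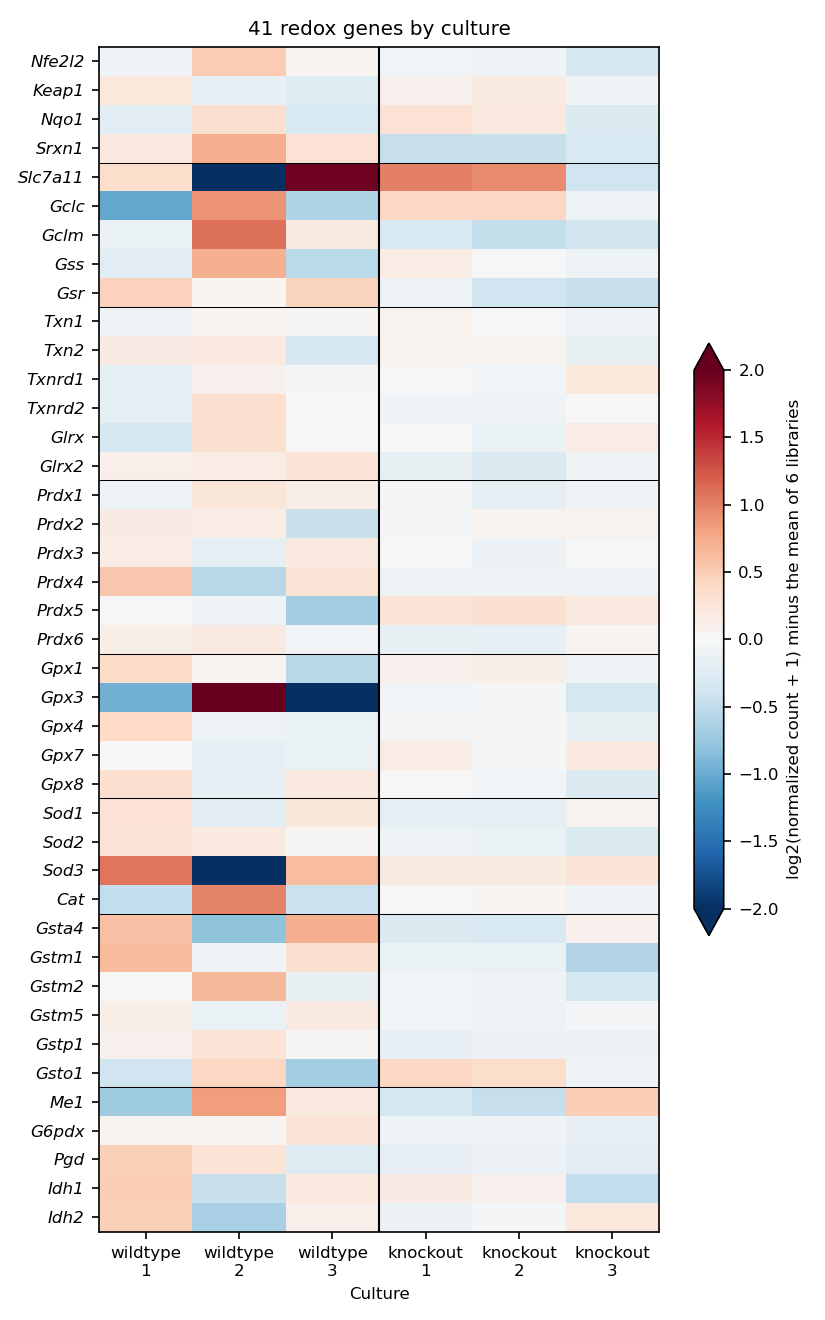
Heat map of the 41 redox genes, grouped by role from NRF2 pathway to NADPH sources and separated by lines, in 3 wildtype and 3 *Nhe6*-knockout cultures; colour gives log2(normalized count + 1) minus the gene's mean over the 6 libraries, clipped at 2 on either side. The darkest cells belong to *Slc7a11*, *Gpx3* and *Sod3* in wildtype cultures, and the row of *Srxn1* is blue in all 3 knockout cultures and red in all 3 wildtype cultures.

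*Nnt* encodes nicotinamide nucleotide transhydrogenase, which makes NADPH in the inner mitochondrial membrane, and it lies on chromosome 13 (chr13:119335448-119408997, minus strand, GRCm38). It is not one of the 41 members. *Nnt* had 1225, 1277 and 1393 normalized counts in *Nhe6*-knockout and 3555, 4514 and 3818 in wildtype cultures. All knockout values lay below all wildtype values, and wildtype replicate 2 was the highest of all. The log2 fold change was -1.61 ± 0.14 (SE), with an adjusted p of 0.0226 in edgeR and 1.63e-16 in DESeq2. In edgeR the call held without wildtype replicate 2 (adjusted p = 0.00991) but not without *Nhe6*-knockout replicate 1 (0.370), 2 (0.321) or 3 (0.0642) or without wildtype replicate 1 (0.0818) or 3 (0.106). With the similar *Nhe6*-knockout replicates 1 and 2 summed into 1 library, an alternative chosen after seeing the data, its adjusted p was 0.341. The fold change stayed between -1.69 and -1.51 in all of these fits. The substrain C57BL/6J is known to carry a deletion within *Nnt* that C57BL/6N lacks. Counts per gene show no alleles, so substrain and genotype cannot be told apart here.

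**Figure D2:**
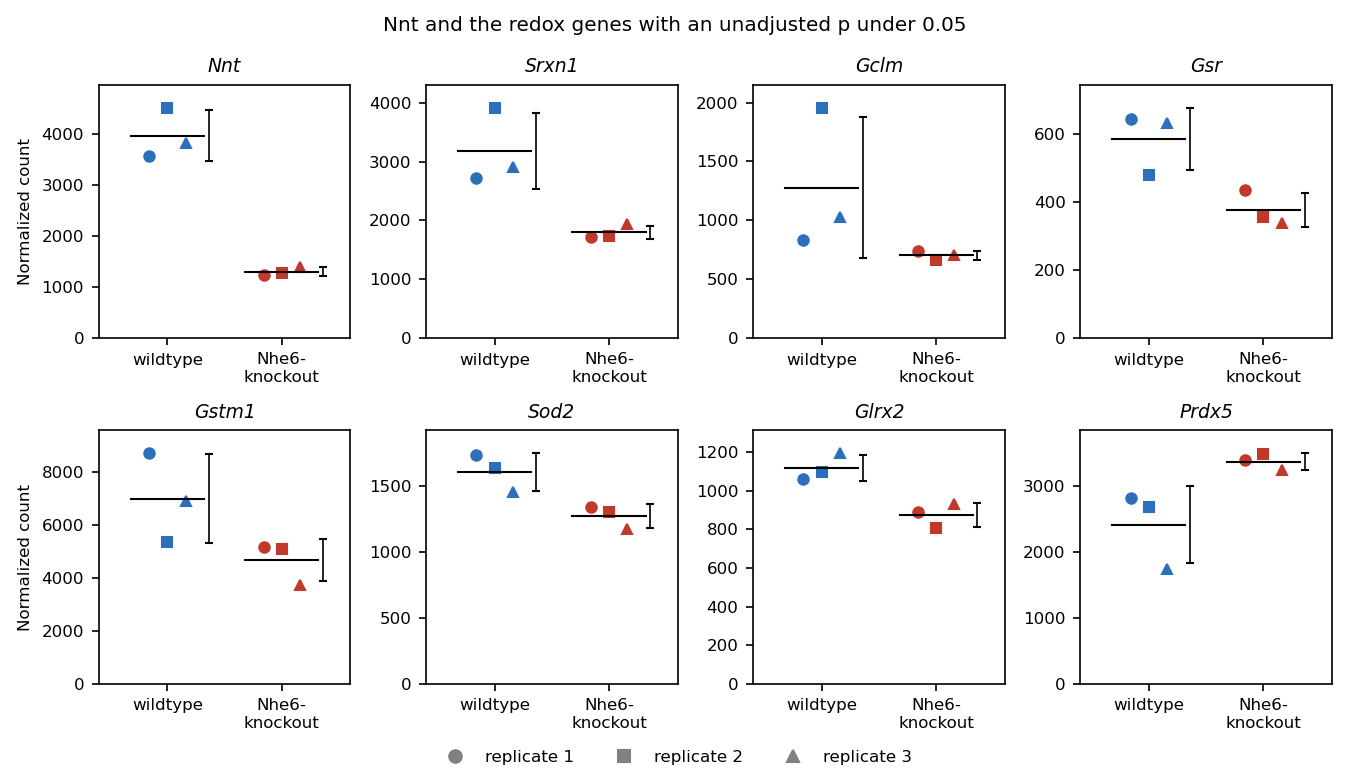
Normalized counts (y axis, linear from 0) of *Nnt* and of the 7 redox genes with an unadjusted p below 0.05 in each wildtype (blue) and *Nhe6*-knockout (red) culture; horizontal lines are means, bars beside them SDs (n = 3), and the marker shape gives the replicate. The knockout points lie below every wildtype point for all genes except *Prdx5*, whose knockout points, 3244 to 3487, lie above the wildtype points.

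Of the 4 genes of the NRF2 pathway, *Srxn1* differed most. It encodes sulfiredoxin, which reactivates peroxiredoxins whose catalytic cysteine has been over-oxidized. *Srxn1* had 1725, 1742 and 1931 normalized counts in *Nhe6*-knockout and 2728, 3922 and 2911 in wildtype cultures. Knockout values lay close together and below every wildtype value, with means of 1799 ± 115 and 3187 ± 643 (SD, n = 3). The log2 fold change was -0.82 ± 0.17 (SE), the smallest p among the members (0.00214), and its adjusted p of 0.118 in edgeR missed the threshold. Without wildtype replicate 2, the highest library, the fold change was -0.65 and the adjusted p 0.0460 in edgeR, and with all libraries DESeq2 gave an adjusted p of 0.00493. Over all alternatives the adjusted p ranged from 7.96e-04 to 0.557. It was 0.544 in edgeR with the similar *Nhe6*-knockout replicates 1 and 2 summed into 1 library. *Nfe2l2* itself had 7827, 7639 and 6445 normalized counts in *Nhe6*-knockout and 7755, 11542 and 8411 in wildtype cultures, and the groups overlapped (log2 fold change -0.34 ± 0.19 SE, or -0.15 ± 0.14 without wildtype replicate 2). *Keap1*, the NRF2 inhibitor, stood at 0.11 ± 0.16, and *Nqo1*, a quinone reductase widely used as a readout of NRF2, at 0.13 ± 0.24, and without that library they were at 0.06 ± 0.17 and 0.35 ± 0.20. Among these 4 genes, separate groups were seen for *Srxn1* alone.

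Promoters bear on this group because NRF2 binds antioxidant response elements with the core TGACNNNGC, and the related palindrome TGANTCA is bound by AP-1 factors. Both were searched on both strands in the 250 bases before the RefSeq transcript start (GRCm38.p6), which was on file for 36 of the 41 members. TGACNNNGC occurred in 7 of these members (19.4%) and in 11.5% of all 27025 promoters, and TGANTCA in 5 members (13.9%) and in 7.82% of all promoters. The windows shown are those of *Srxn1*, *Gclm* and *Prdx1*. Among the 7 members with an unadjusted p below 0.05 in edgeR, *Srxn1* and *Gclm* had the log2 fold changes of largest size. In *Prdx1* both patterns overlap. Capitals mark the matched bases, 5′ to 3′ on the strand of the gene, and a TGACNNNGC on the other strand is printed as its reverse complement.
*Srxn1*, TGANTCA, chr2:152105392-152105458, plus strand: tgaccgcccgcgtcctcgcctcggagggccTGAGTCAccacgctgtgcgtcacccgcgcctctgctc
*Srxn1*, TGANTCA, chr2:152105449-152105515, plus strand: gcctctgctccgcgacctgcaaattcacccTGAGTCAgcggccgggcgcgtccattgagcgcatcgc
*Gclm*, TGACNNNGC, chr3:122245393-122245461, plus strand: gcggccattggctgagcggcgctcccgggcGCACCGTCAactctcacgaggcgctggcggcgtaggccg
*Prdx1*, TGACNNNGC, chr4:116685436-116685504, plus strand: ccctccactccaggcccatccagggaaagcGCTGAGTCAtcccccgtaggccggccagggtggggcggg
In *Prdx1* the same stretch also holds TGANTCA, and a further copy lies nearer the upstream end of the window. Of these genes, *Srxn1* and *Gclm* were lower in every knockout culture, whereas *Prdx1* overlapped between the genotypes. No TGACNNNGC was found in the *Srxn1* window. Among the other members with a match to either pattern, *G6pdx* and *Gstp1* were also lower in every knockout culture. *Gstm5*, *Nfe2l2*, *Sod1*, *Txnrd1* and *Glrx* overlapped. A link between matches and fold changes was not tested. A match describes letters and is not a measured binding site, and the lack of a match does not show a lack of binding.

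The 5 genes of glutathione synthesis and recycling did not move alike. *Gclm*, the modifier subunit of glutamate cysteine ligase, had 736, 658 and 707 normalized counts in *Nhe6*-knockout and 836, 1958 and 1031 in wildtype cultures. Wildtype replicate 2 was far above the next highest culture, although all knockout values were below all wildtype values. Its log2 fold change was -0.86 ± 0.32 (SE; adjusted p = 0.369 in edgeR) with this library and -0.42 without it. *Gsr*, glutathione reductase, spends NADPH to regenerate glutathione and had 433, 354 and 339 normalized counts in *Nhe6*-knockout and 644, 478 and 631 in wildtype cultures. The groups did not overlap, and the log2 fold change of *Gsr* was -0.64 ± 0.19 (SE; adjusted p = 0.265 in edgeR, 0.0731 without wildtype replicate 2).

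The catalytic ligase subunit and the cystine importer had wildtype values too far apart for a direction; they, and the other members described through wildtype replicate 2 below, were singled out after their values were seen. *Gclc*, the catalytic subunit that pairs with *Gclm*, had 9750, 9755 and 6821 normalized counts in *Nhe6*-knockout and 3599, 13686 and 4775 in wildtype cultures. Wildtype replicate 2 was above every knockout culture and the other wildtype cultures were below them. The log2 fold change of *Gclc* was 0.26 ± 0.51 (SE) with and 1.06 ± 0.22 without that library, where its adjusted p was 0.0694 in edgeR. *Slc7a11*, the transporter that brings in cystine for glutathione, had 53559, 51052 and 20184 normalized counts in *Nhe6*-knockout and 33904, 1803 and 102594 in wildtype cultures. The highest and the lowest library were both wildtype and differed 56.9-fold, the widest range of any member. Its log2 fold change of -0.15 ± 1.15 (SE) became -0.72 without wildtype replicate 2 and 1.21 without wildtype replicate 3. *Gss*, glutathione synthetase, stood at -0.06 ± 0.33, and at 0.39 ± 0.16 without wildtype replicate 2.

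Thioredoxins and glutaredoxins, small proteins that reduce disulfides, were the most even group, with a median size of the log2 fold change of 0.06 over 6 genes. *Txn1*, the cytosolic thioredoxin, had 3238, 3105 and 2902 normalized counts in *Nhe6*-knockout and 2957, 3221 and 3129 in wildtype cultures. All 6 cultures lay within 1.12-fold of each other, and the log2 fold change was -0.01 ± 0.11 (SE). *Txn2*, its mitochondrial counterpart, was at -0.03 ± 0.17. The thioredoxin reductases *Txnrd1* (cytosolic) and *Txnrd2* (mitochondrial), which spend NADPH to recharge thioredoxin, were at 0.09 ± 0.13 and -0.13 ± 0.23, or at 0.16 and 0.02 without wildtype replicate 2. *Glrx2*, the mitochondrial glutaredoxin, was the exception in this group, with 890, 807 and 930 normalized counts in *Nhe6*-knockout and 1063, 1095 and 1193 in wildtype cultures. Every knockout value of *Glrx2* was below every wildtype value, and its log2 fold change of -0.35 ± 0.12 (SE) had an adjusted p of 0.334 in edgeR. The cytosolic *Glrx* had overlapping groups, with means of 1747 ± 173 and 1754 ± 396 (SD, n = 3).

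Among the 6 peroxiredoxins, which break down hydrogen peroxide with thioredoxin, *Prdx5* was the one with separate groups, higher in *Nhe6*-knockout cultures. *Prdx5*, found in mitochondria, peroxisomes and cytosol, had 3392, 3487 and 3244 normalized counts in *Nhe6*-knockout and 2820, 2690 and 1743 in wildtype cultures. The knockout values were close together and above all wildtype values, of which replicate 3 was the lowest. Its log2 fold change was 0.48 ± 0.20 (SE; unadjusted p = 0.0476, adjusted p = 0.420 in edgeR). Exons of *Trmt112* cover 19.1% of the *Prdx5* exon length on the opposite strand, and the strand setting of the counting is not given in the sources used here. *Prdx4*, the peroxiredoxin of the endoplasmic reticulum, had 2778, 2783 and 2817 normalized counts in *Nhe6*-knockout and 4297, 2027 and 3593 in wildtype cultures. It lay between the wildtype values in every knockout culture, with a log2 fold change of -0.24 ± 0.27 (SE), or -0.50 ± 0.12 without wildtype replicate 2. The cytosolic *Prdx1* and *Prdx2*, the mitochondrial *Prdx3* and the bifunctional *Prdx6* had log2 fold changes between -0.20 and 0.06, with SEs of 0.12 to 0.19, and between -0.21 and 0.14 without wildtype replicate 2.

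Members of the glutathione peroxidase family reduce peroxides, though not all of them chiefly with glutathione, and none of the 5 listed had separate groups. *Gpx3*, the secreted plasma form, had 2065, 2110 and 1683 normalized counts in *Nhe6*-knockout and 1097, 23214 and 525 in wildtype cultures. Wildtype replicate 2 was 44.2 times wildtype replicate 3, and all knockout values lay above 2 of the wildtype cultures and below the other. The log2 fold change of *Gpx3* was -2.08 ± 1.33 (SE) over all libraries and 1.26 ± 0.32 without wildtype replicate 2, a reversal of its sign (adjusted p of 0.611 and 0.101 in edgeR). *Gpx1*, the major cytosolic form, was at 0.06 ± 0.24 and *Gpx4*, which reduces lipid peroxides in membranes, at -0.13 ± 0.17. *Gpx7* and *Gpx8*, which act in the endoplasmic reticulum, stood at 0.22 ± 0.12 and -0.24 ± 0.17. Without wildtype replicate 2, *Gpx4* was at -0.21 and *Gpx8* at -0.37.

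All 4 genes of the superoxide dismutase and catalase group had a log2 fold change below 0, though only *Sod2* had separate groups and *Cat* was above 0 without wildtype replicate 2. *Sod2*, the mitochondrial manganese enzyme, had 1345, 1306 and 1171 normalized counts in *Nhe6*-knockout and 1732, 1634 and 1454 in wildtype cultures. Its difference was small and even, at -0.33 ± 0.12 (SE; adjusted p = 0.367 in edgeR), and it was -0.33 without wildtype replicate 2. *Sod1*, the cytosolic copper and zinc enzyme, was at -0.22 ± 0.17, or -0.36 ± 0.13 without that library. *Sod3*, the extracellular enzyme, had 1802, 1805 and 1896 normalized counts in *Nhe6*-knockout and 3349, 323 and 2445 in wildtype cultures. Wildtype replicate 2 was the lowest library and the other wildtype cultures were above every knockout culture, giving -0.15 ± 0.71 (SE) with it and -0.66 ± 0.15 without it. *Cat*, catalase, which breaks down peroxide in peroxisomes, had 3468, 3592 and 3277 normalized counts in *Nhe6*-knockout and 2474, 6938 and 2585 in wildtype cultures. For *Cat* the same library was the highest of all, and the log2 fold change was -0.21 ± 0.41 (SE) with it and 0.44 ± 0.11 without it.

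Glutathione transferases join glutathione to electrophiles, and 5 of 6 were below 0. *Gstm1* had 5151, 5106 and 3745 normalized counts in *Nhe6*-knockout and 8700, 5361 and 6920 in wildtype cultures. The highest knockout value fell just short of the lowest wildtype value, and the log2 fold change was -0.58 ± 0.22 (SE; adjusted p = 0.386 in edgeR). *Gsta4*, which detoxifies lipid peroxidation products such as hydroxynonenal, is among the primer targets of the study's quantitative PCR. The text of the study gives no comparison of the genotypes for it by that method. *Gsta4* had 2357, 2321 and 3021 normalized counts in *Nhe6*-knockout and 4312, 1645 and 4668 in wildtype cultures. Wildtype replicate 2 was the lowest and the other wildtype cultures the highest, so its log2 fold change was -0.46 ± 0.38 (SE), or -0.81 ± 0.16 without that library (adjusted p = 0.0552 in edgeR). *Gstp1* had 755, 783 and 783 against 903, 1029 and 856 normalized counts, with separate groups and a log2 fold change of -0.26 ± 0.13. *Gsto1*, which also reduces dehydroascorbate, was the one above 0, at 0.39 ± 0.31, or 0.77 ± 0.19 without wildtype replicate 2. *Gstm2* and *Gstm5* stood at -0.37 ± 0.23 and -0.12 ± 0.12, and at -0.10 ± 0.14 and -0.22 ± 0.10 without that library.

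All 5 member genes that supply NADPH had log2 fold changes below 0, between -0.36 and -0.02, and none had an unadjusted p below 0.05. Without wildtype replicate 2 only 4 were below 0, with *Me1* at 0.13, and without wildtype replicate 1 *Idh1* was at 0.039 and *Idh2* at 0.25. *G6pdx*, the first enzyme of the pentose phosphate pathway, had 3767, 3765 and 3577 normalized counts in *Nhe6*-knockout and 4142, 4119 and 4775 in wildtype cultures. These groups did not overlap, and the log2 fold change of *G6pdx* was -0.23 ± 0.12 (SE; adjusted p = 0.498 in edgeR). *Pgd*, the next NADPH-making enzyme of that pathway, was at -0.36 ± 0.20. The isocitrate dehydrogenases *Idh1* (cytosolic) and *Idh2* (mitochondrial) were at -0.18 ± 0.29 and -0.02 ± 0.28, or at -0.41 ± 0.23 and -0.28 ± 0.17 without wildtype replicate 2. *Me1*, cytosolic malic enzyme, had 987, 915 and 1773 normalized counts in *Nhe6*-knockout and 775, 2243 and 1453 in wildtype cultures, and was at -0.28 ± 0.43.

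**Figure D3:**
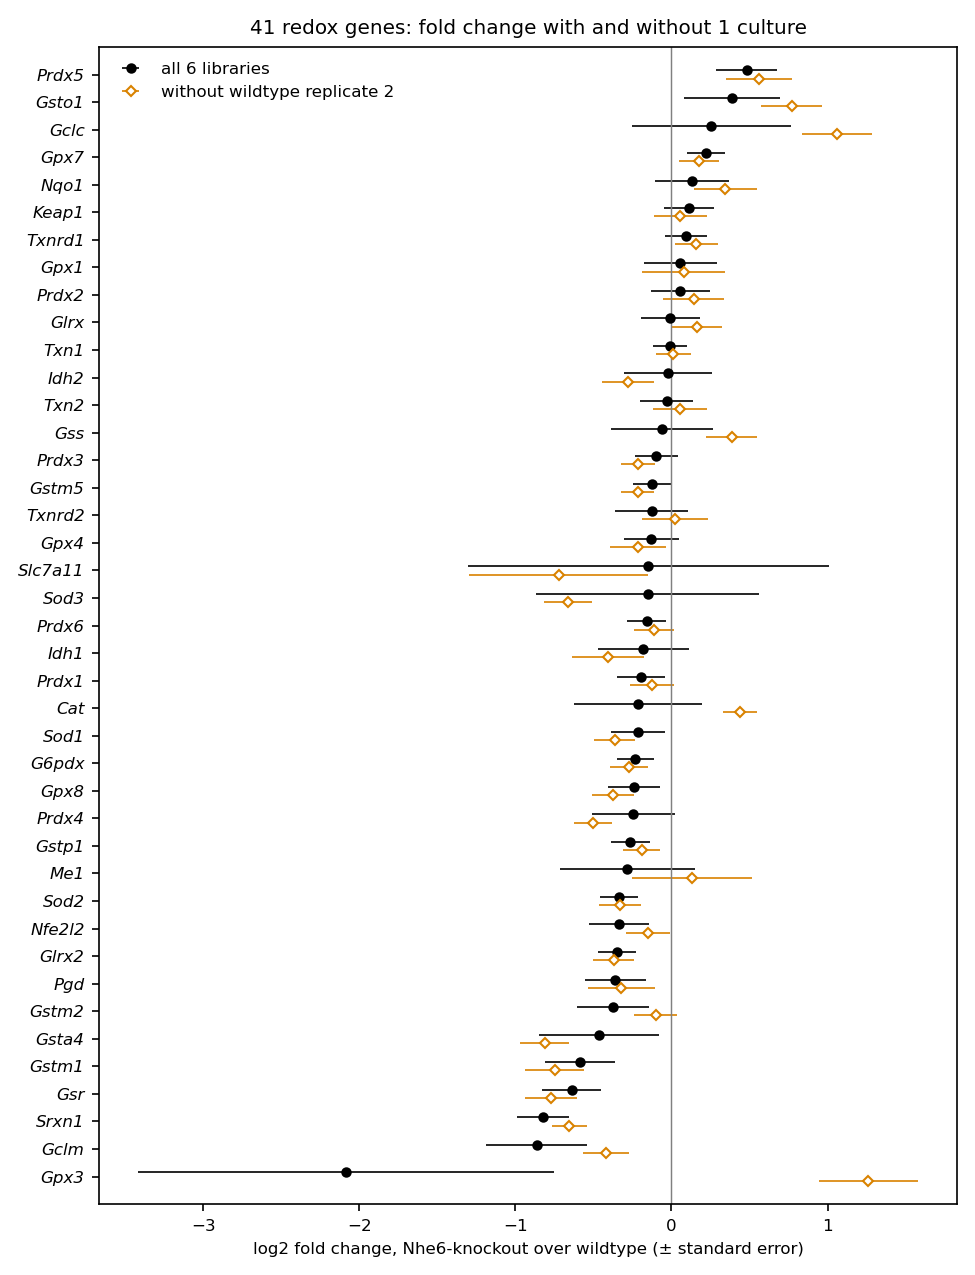
Log2 fold change of *Nhe6*-knockout over wildtype (x axis, bars are standard errors) for each of the 41 redox genes from edgeR with all 6 libraries (black circles) and without wildtype replicate 2 (orange diamonds), ordered by the first value. Most circles lie just left of 0, and *Gpx3* moves furthest, from -2.08 to 1.26.

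The fold change of several members depended on wildtype replicate 2. It was the highest library for 16 members and the lowest for 9, that is, the extreme library for 61.0% of members and 53.3% of all genes. In 3 members (7.32%) it lay at least 2-fold outside the range of the other 5 libraries, above them for *Gpx3* and below for *Slc7a11* and *Sod3*, against 10.2% of all genes. The same library had 27187 normalized counts of the collagen gene *Col1a1* and 16275 of the smooth muscle actin gene *Acta2*, where no other library exceeded 1228 and 1204. The fibroblast, mural and endothelial lists did not go 1 way in it. It was the highest library for 4 and the lowest for 6 of 12 fibroblast markers. Of 10 mural markers it was the highest for 2 and the lowest for 5, and of 15 endothelial markers for 7 and 4. It was the lowest library for 9 of 12 macrophage and 5 of 10 melanocyte markers, and the highest for 0 in either list. Without it, 16 members (39.0%) had an unadjusted p below 0.05 in edgeR, against 19.5% of all genes. Of them, 11 were lower in *Nhe6*-knockout cultures (*Srxn1*, *Gclm*, *Gsr*, *Glrx2*, *Prdx4*, *Gpx8*, *Sod1*, *Sod2*, *Sod3*, *Gsta4* and *Gstm1*) and 5 were higher (*Gclc*, *Prdx5*, *Gpx3*, *Cat* and *Gsto1*). One member, *Srxn1*, then passed an adjusted p of 0.05 in edgeR, where 2.88% of all genes did. DESeq2 with all 6 libraries also called *Srxn1* alone among the members, against 4.08% of all genes, and it gave no adjusted p for *Gpx3*. DESeq2 without wildtype replicate 2, an alternative chosen after seeing the data, called 10 members (*Srxn1*, *Gclc*, *Gsr*, *Prdx4*, *Gpx3*, *Sod3*, *Cat*, *Gsta4*, *Gstm1* and *Gsto1*), against 9.31% of all genes. These 10 included both directions, with 4 higher and 6 lower.

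**Figure D4:**
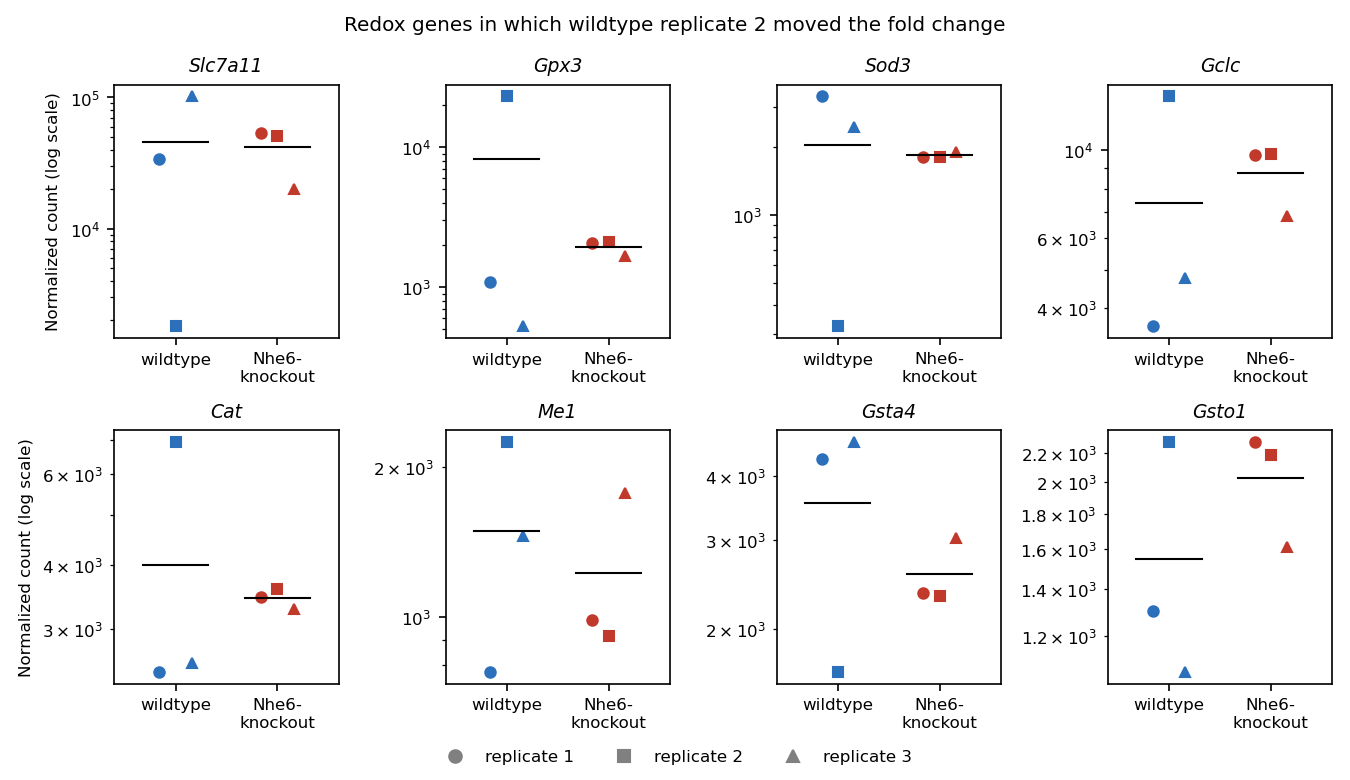
Normalized counts (y axis, log scale, its range differing between panels) of 8 redox genes in each wildtype (blue) and *Nhe6*-knockout (red) culture, with lines at the means and marker shapes for the replicate. The square of wildtype replicate 2 is the highest wildtype point for *Gpx3*, *Gclc*, *Cat*, *Me1* and *Gsto1* and the lowest for *Slc7a11*, *Sod3* and *Gsta4*.

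Levels can be compared between genes only per length, so normalized counts were divided by the exon length of each gene in GENCODE M21, as a mean over the 6 libraries. On this scale *Gpx8* (4942 normalized counts per kilobase) and *Prdx1* (4853) were the most abundant members, followed by *Gstm1* (3958), *Idh1* (3568), *Slc7a11* (3150) and *Txn1* (2942). The place of *Slc7a11* is not settled, since its wildtype cultures averaged 3311 ± 3699 (SD, n = 3) on this scale. *Sod2* (144), *Gss* (120), *Glrx2* (114) and *Txnrd2* (32.1) were the lowest. The mitochondrial reductase *Txnrd2* was thus expressed far below the cytosolic *Txnrd1* (453), and *Gclm* (157) far below its partner *Gclc* (2141). *Gpx8* and *Prdx1*, next to each other in this order, overlapped between libraries, as did *Gss* and *Glrx2*. Exon length counts every annotated exon, including ends of rare transcripts, and so lowers the value of genes with long alternative ends. The order would differ with another length. Exons of *Sod1* spanned 3970 bases, for instance, whereas its longest coding transcript held 567 start positions for a 75-base read. Reads of 75 bases from 5 members could also fit elsewhere, since over 10% of their 75-base stretches occur in another gene, namely in *Gstp1* (57.7%), *Gpx4* (55.3%), *Me1* (18.9%), *Gstm1* (14.8%) and *Sod1* (12.2%), and their values are uncertain to that extent. Exons of other genes cover over 10% of the exon length of *Gss* (15.4%), *Gstm5* (13.9%), *G6pdx* (13.6%), *Prdx2* (11.5%) and *Keap1* (10.9%), besides *Prdx5*.

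**Figure D5:**
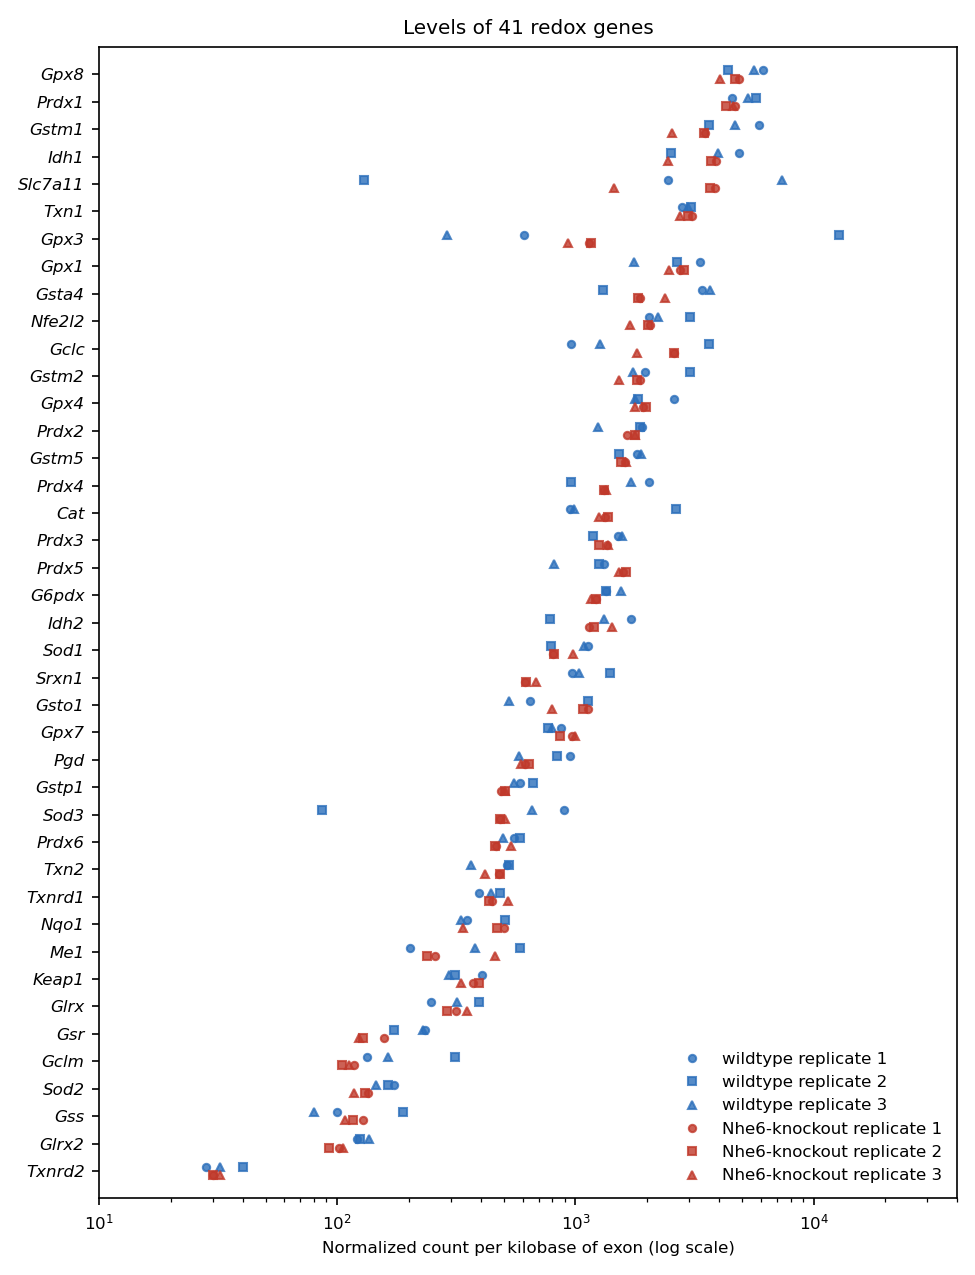
Normalized counts per kilobase of exon (x axis, log scale) of the 41 redox genes in each of 3 wildtype (blue) and 3 *Nhe6*-knockout (red) cultures, ordered by the mean of the 6 libraries. Points of 1 gene mostly lie close together, and *Slc7a11*, *Gpx3* and *Sod3* are spread widest by wildtype cultures.

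Another 5 lists of redox genes, 119 of whose 120 genes were in the table, gave 1 call, which was *Nnt*. For the counts of these lists at an unadjusted p below 0.05 in edgeR, the shares over all genes tested were 5.71% lower and 6.14% higher. Among 23 tested NRF2 targets and regulators, 0 passed edgeR's adjusted threshold, with 1 lower and 1 higher at an unadjusted p below 0.05. *Bach1*, a repressor that competes with NRF2, had 1870, 1882 and 1741 normalized counts in *Nhe6*-knockout and 2180, 2871 and 2460 in wildtype cultures (log2 fold change -0.45 ± 0.13 SE, adjusted p = 0.268 in edgeR). *Nrip1*, a nuclear receptor corepressor, had 1765, 1876 and 1422 against 922, 1432 and 1119 (0.54 ± 0.20). *Hmox1*, heme oxygenase, which BACH1 represses, was singled out after its values were seen, with 17662, 18018 and 18666 normalized counts in *Nhe6*-knockout and 16818, 5158 and 14704 in wildtype cultures. The *Hmox1* groups did not overlap, but its log2 fold change was 0.57 ± 0.42 (SE) with and 0.20 without wildtype replicate 2.

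Of 29 tested other glutathione genes, 0 passed in edgeR, and 5 were lower and 3 higher at an unadjusted p below 0.05. The transferase *Gstm7* had 239, 196 and 165 normalized counts in *Nhe6*-knockout and 131, 75.3 and 61.0 in wildtype cultures (1.16 ± 0.35 SE), and *Gsto2* had 28.7, 34.4 and 37.9 against 52.8, 106 and 65.3 (-1.15 ± 0.38). Within these families the fold changes lay on both sides of 0, for *Gstm1* and *Gstm7* as for *Gsto1* and *Gsto2*. *Anpep*, a peptidase that acts on the dipeptide released from glutathione, had 4087, 4126 and 3022 against 5048, 5012 and 5332 (-0.45 ± 0.15).

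The 21 other NADPH genes held the call of *Nnt*, with 7 log2 fold changes below 0 and 14 above, and a median of 0.25. A further 3 genes had an unadjusted p below 0.05 without passing. *Me2*, mitochondrial malic enzyme, had 1659, 1549 and 1677 normalized counts in *Nhe6*-knockout and 3226, 1689 and 3826 in wildtype cultures. Its groups did not overlap, though wildtype replicate 2 lay near the knockout values, and the log2 fold change was -0.84 ± 0.29 (SE; adjusted p = 0.339 in edgeR) or -1.12 without that library (0.0226). *Shmt1*, of one-carbon metabolism, had 135, 118 and 80.5 against 30.3, 65.0 and 26.8, and was at 1.45 ± 0.45 (adjusted p = 0.282 in edgeR, 0.0484 without wildtype replicate 2). *H6pd*, which makes NADPH in the endoplasmic reticulum, had 7439, 7650 and 3752 against 4220, 2606 and 3065, with overlapping groups (0.93 ± 0.32).

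Of 20 other thiol and methionine repair genes, 0 passed in edgeR and 1 was lower and 1 higher at an unadjusted p below 0.05. *Selenok*, a selenoprotein of the endoplasmic reticulum, had 2018, 1893 and 1881 normalized counts in *Nhe6*-knockout and 2767, 3045 and 2427 in wildtype cultures (-0.51 ± 0.12 SE, adjusted p = 0.178 in edgeR and 0.0487 in DESeq2). *Selenoh*, a nuclear selenoprotein, had 224, 265 and 227 against 187, 98.0 and 120 (0.82 ± 0.29). Among 11 tested of 19 oxidant-producing genes, 0 passed in edgeR and 1 was higher at an unadjusted p below 0.05. That gene, *Nos1*, neuronal nitric oxide synthase, was near the detection limit, with 30.8, 17.7 and 25.6 normalized counts in *Nhe6*-knockout and 4.89, 3.10 and 0 in wildtype cultures (adjusted p = 0.216 in edgeR, 0.0202 in DESeq2).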

How the data were processed

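RNA of 6 cultures was sequenced from poly(A)-enriched stranded libraries with 75 base reads. The authors deposited a raw read count for every gene symbol and library, neither normalized nor filtered. The submitters' processing notes name bcl2fastq 2.20.0.422, STAR 2.7.7a, HTSeq 0.13.5, DESeq2 1.26.0 and mm10 (GRCm38), and the strand setting of the counting is not given in the sources used here. The 5 summary lines of the table (22.2% of reads) were left out. Columns were matched to cultures by genotype and replicate number. Nothing states that cultures came from separate litters or days, so p-values measure the spread between cultures.

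Genes were filtered with filterByExpr (minimum count 10), normalized with TMM (factors 0.976 to 1.03) and compared in 1 fit of all 6 libraries by edgeR 4.0.16 (R 4.3.3; quasi-likelihood test, two-sided), with genotype alone as a term. P-values were adjusted by Benjamini-Hochberg over all 13479 genes tested, at a threshold of 0.05. SE is the size of a log2 fold change divided by the square root of F. An exact permutation test of 3 against 3 cannot go below 0.1, so none was used for calls. Alternatives were DESeq2 1.42.0, limma-voom (limma 3.58.1), other normalizations and filters, replicate number as a block, and the omission of each culture. Scripts were tested on simulated data.

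Members and lists were chosen with earlier results of these data known. All members may be named; those with an unadjusted p below 0.05, or with separate groups and a log2 fold change of at least 0.5 in size, have a value for every culture. Of the other lists, each gene past the threshold, or up to 3 genes with the smallest unadjusted p, have values. Older symbols were matched through RefSeq synonyms. Quantitative PCR and protein data were not analysed here. The level of the targeted gene is not reported here.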

Additional observations from a re-analysis of the deposited data

How the results depend on the processing

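The count of members past an adjusted p of 0.05 was 0 with all libraries in every edgeR fit and in limma-voom, 1 with DESeq2, 0 to 1 when each culture was left out, and 10 with DESeq2 without wildtype replicate 2. For the other redox genes the count was 1, against 3 with DESeq2, 0 with the replicate block, 0 to 3 when each culture was left out, 10 with DESeq2 without wildtype replicate 2 and 0 with *Nhe6*-knockout replicates 1 and 2 summed. The median log2 fold change of the members, -0.16, was -0.12 in limma-voom and -0.11 with the replicate block. Deviations from the genotype means had correlations of 0.20, -0.20 and 0.09 for same-numbered cultures, and of -0.39 to 0.38 for differently numbered ones. With so few cultures these values cannot decide whether the numbers mark a pairing. *Nnt* had an adjusted p of 0.0748 in edgeR with the block.

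Signs changed as follows. Upper-quartile normalization gave 0.021 for *Txn1*, 0.0016 for *Txn2* and 0.029 for *Glrx*. Limma-voom gave 1.05 for *Slc7a11*, 0.031 for *Gss*, 0.015 for *Glrx*, 0.40 for *Sod3* and 0.044 for *Idh2*, and the replicate block 0.87, 0.037, 0.014, 0.32 and 0.044 for the same genes. Summing *Nhe6*-knockout replicates 1 and 2 gave 0.027 for *Glrx* and 0.026 for *Idh2*. DESeq2 without wildtype replicate 2 gave 0.39 for *Gss*, 0.015 for *Txn1*, 0.056 for *Txn2*, 0.025 for *Txnrd2*, 0.17 for *Glrx*, 1.27 for *Gpx3*, 0.44 for *Cat* and 0.13 for *Me1*. Leaving out each culture in turn moved the log2 fold change from -0.72 to 1.21 for *Slc7a11*, from -2.64 to 1.26 for *Gpx3*, from -0.079 to 1.06 for *Gclc*, from -0.66 to 0.40 for *Sod3*, from -0.47 to 0.44 for *Cat*, from -0.66 to 0.13 for *Me1*, from -0.30 to 0.39 for *Gss*, from -0.28 to 0.25 for *Idh2*, from -0.41 to 0.039 for *Idh1*, from -0.16 to 0.16 for *Glrx*, from -0.051 to 0.024 for *Txn1*, from -0.19 to 0.054 for *Txn2*, from -0.0017 to 0.16 for *Txnrd1*, from -0.24 to 0.022 for *Txnrd2*, from -0.23 to 0.061 for *Gpx4*, from -0.12 to 0.15 for *Prdx2* and from -0.16 to 0.27 for *Gpx1*. The cause of these changes was not tested. All members passed the filter on low counts, and every error rests on 3 cultures per genotype, of which *Nhe6*-knockout replicates 1 and 2 were much alike.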
